A study of Mus musculus with 3 samples.

Results

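The genes described here encode the lethal granule proteins of cytotoxic T cells, the death ligand of these cells and the inhibitor that shields the killer from its own granzyme. They were taken by name as 10 genes, the granzymes Gzma, Gzmb, Gzmc, Gzmd, Gzme, Gzmf and Gzmk, the perforin gene Prf1, Fasl and Serpinb9. A named probe set was found for 8 of the 10, out of 19505 genes with a named probe set on the array. Gzmd and Gzme had no named probe set in the platform annotation used here and were not measured. Each of the 8 measured genes had 1 probe set.

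Mouse CD8 T cells were stimulated through CD3 and CD28 and cultured under Tc1 cytokine conditions, which push CD8 T cells toward killers that make interferon-gamma. All 3 samples shared this stimulation and these cytokines. The control sample had no added cholesterol, and the other samples received 0.5 or 0.75 µg/ml cholesterol. The question the labels pose is how each dose differed from the control. Strain, age, number of animals or cultures, exposure time and the carrier of the cholesterol were not given in the sources used here, so carrier and cholesterol cannot be told apart. Each condition had 1 array, so no difference below has a replicate error, a standard error or a p-value, and their number limits the precision of every value.

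As background, a cytotoxic T cell kills by releasing granules onto its target. Perforin opens the target membrane, and the granzymes, serine proteases stored beside it, pass through and cleave proteins that start cell death. Granzyme B cuts after aspartate like a caspase and acts on Bid and caspases, granzyme A is a tryptase-like enzyme, and the mouse genes for granzymes C, D, E and F are copies next to Gzmb in 1 gene cluster. Fas ligand kills by another route, by binding the receptor Fas on the target, and Serpinb9 is the serpin that traps granzyme B that leaks into the cytosol of the killer cell.

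Intensities are in arbitrary units on a linear scale. The background level used below is 102, the highest 95th percentile of the negative-control probe sets on any of the 3 arrays. For a value under it, that level, and not the value itself, is the upper bound for the gene. Median intensities over all probe sets were within 32.4 to 33.0 on the arrays, and between 7610 and 7695 genes per array lay at or above the background level. All 7 of the T cell and CD8 markers (such as Cd8a and Cd3e) were above background on all 3 arrays. Of the other cells that carry granzymes or granule proteases, none of 6 measured NK cell markers was above background on any array, with summed intensities of 109, 111 and 128 in the control and at 0.5 and 0.75 µg/ml, and their defining receptor gene Ncr1 was at 12.1, 13.3 and 8.7. Of 8 mast cell and basophil markers 1 was above background on any array, the receptor gene Kit at 133, 88.3 and 42.4, and the list's summed intensity was 245, 219 and 211. Without Kit the other 7, all under background, summed to 112, 130.3 and 168. In these bulk samples, fewer cells of a type and less RNA per cell cannot be told apart.

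None of the 8 measured genes differed 2-fold between any pair of arrays as deposited, and the gene that came nearest was Prf1 between the doses. Among the 10003 genes past a level filter (a mean log2 intensity at or above the median of the transcript probe sets, an intensity of 43.3), 0.08% differed at least 2-fold at 0.5 µg/ml, 1.89% at 0.75 µg/ml and 1.53% between the doses. A count of 0 among 8 genes is close to those shares and is not a result about the cytotoxic genes in particular. Of the members, 7 of 10 passed that filter, and Gzmk did not.

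**Figure D1:**
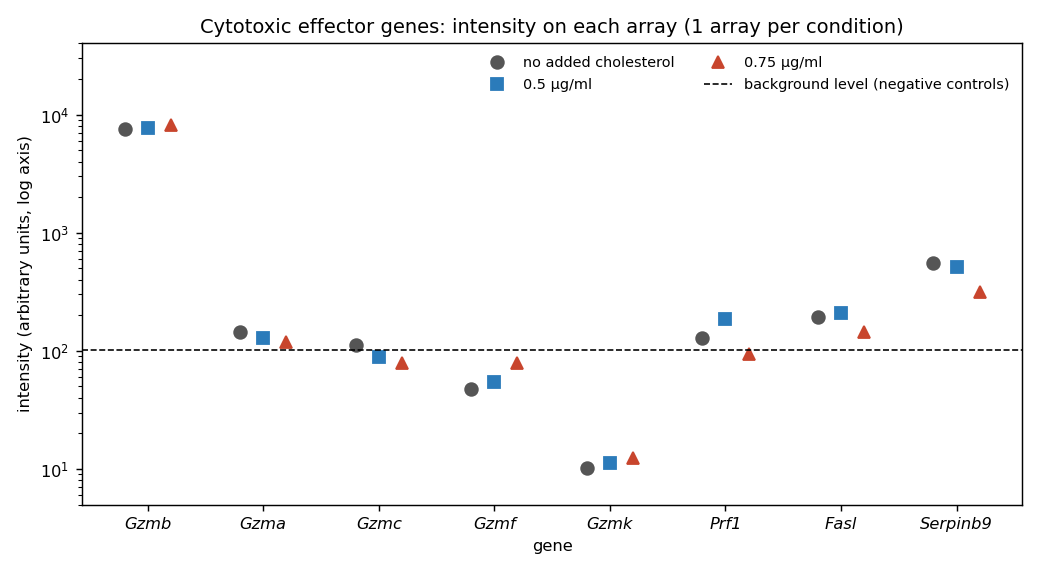
Intensity of each measured gene (log axis, arbitrary units) on the array without added cholesterol (grey circle), at 0.5 µg/ml (blue square) and at 0.75 µg/ml (red triangle), 1 array each. The dashed line is the background level of 102. Gzmb lies far above it and nearly level across the arrays, Serpinb9 is lowest at 0.75 µg/ml, Prf1 is highest at 0.5 and under the line at 0.75 µg/ml, and Gzmf and Gzmk are under the line on every array.

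Granzyme B was far above background in these cells, and its level hardly differed between the arrays. Without cholesterol Gzmb (Entrez gene 14939) was at 7611, the lower dose had 7741 and the higher dose 8136. The order ascended with dose, but the highest array was only 1.07-fold over the lowest. The log2 differences were 0.02 at 0.5 µg/ml and 0.10 at 0.75 µg/ml against the control, and 33.6% of genes past the level filter lay at least as far above the control at the higher dose. The table holds no flag for saturated probe sets, so saturation of this bright signal was not tested.

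Granzyme A was dim but above background on all 3 arrays. Gzma (Entrez gene 14938) was at 144 without cholesterol, 128 at 0.5 µg/ml and 119.8 at 0.75 µg/ml. It was highest without cholesterol and descended with dose, by log2 differences of -0.17 and -0.27 from the control. Of genes past the level filter, 16.2% were at least as far below the control at 0.75 µg/ml, so a difference of this size was common between these arrays.

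Granzyme C was above background in the control alone. Gzmc (Entrez gene 14940), which encodes a protease able to kill by a caspase-independent route, was at 111 without cholesterol, 89.5 at 0.5 µg/ml and 79.1 at 0.75 µg/ml. With the dim values raised to the background level it was at least 1.09-fold lower at either dose, and both doses were under background, so they have no order. The measured log2 differences from the control were -0.31 and -0.49, and 4.92% and 6.47% of genes past the level filter were at least as far below it. With dim values raised both differences were -0.13. That is smaller than the SD over positive-control probe sets, 0.27 and 0.30 at the 2 doses.

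Granzyme F and granzyme K were under background on every array. Gzmf (Entrez gene 14943) was at 47.3, 54.0 and 79.3 in the control and at 0.5 and 0.75 µg/ml, and no fold or order is given because every array was under background. Gzmk (Entrez gene 14945), a granzyme linked to memory-like CD8 T cells, was at 10.1, 11.3 and 12.4. Neither value shows that the transcripts were absent, only that the probe sets did not stand above the negative controls.

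The granzyme genes Gzmb, Gzmc, Gzmd, Gzme and Gzmf, are neighbours on mouse chromosome 14, in the order Gzme, Gzmd, Gzmg, Gzmn, Gzmf, Gzmc and Gzmb in the RefSeq annotation of GRCm38.p6. Their promoters are shown because the array levels differ within this cluster. Gzmb was above background on every array, Gzmc in the control alone and Gzmf on none. The split between Gzmc and Gzmf rests on the control value of Gzmc, 111 against a level of 102. At 0.75 µg/ml they were at 79.1 and 79.3, and Gzmd and Gzme were not measured. The sequences are the 200 bases before each annotated start from RefSeq (GRCm38.p6), written 5′ to 3′ on the gene's strand. Capitals mark matches on either strand to TGACGT, the core of the cyclic AMP response element, to TGTGGT, the core bound by RUNX factors, and to TGANTCA, the AP-1 site.
Gzmb, chr14:56262335-56262534, strand -: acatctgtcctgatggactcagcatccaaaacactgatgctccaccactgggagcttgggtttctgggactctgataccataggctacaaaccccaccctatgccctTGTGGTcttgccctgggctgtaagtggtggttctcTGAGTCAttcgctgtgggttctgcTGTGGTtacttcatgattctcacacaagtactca
Gzmc, chr14:56234658-56234857, strand -: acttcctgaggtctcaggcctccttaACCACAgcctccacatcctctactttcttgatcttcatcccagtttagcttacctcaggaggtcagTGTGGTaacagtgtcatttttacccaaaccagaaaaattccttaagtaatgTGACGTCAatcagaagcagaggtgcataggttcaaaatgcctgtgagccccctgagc
Gzmd, chr14:56132594-56132793, strand -: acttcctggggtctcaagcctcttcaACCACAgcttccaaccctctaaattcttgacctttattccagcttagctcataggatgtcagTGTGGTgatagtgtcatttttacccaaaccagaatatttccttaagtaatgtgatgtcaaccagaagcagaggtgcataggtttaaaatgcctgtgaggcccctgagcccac
Gzme, chr14:56120626-56120825, strand -: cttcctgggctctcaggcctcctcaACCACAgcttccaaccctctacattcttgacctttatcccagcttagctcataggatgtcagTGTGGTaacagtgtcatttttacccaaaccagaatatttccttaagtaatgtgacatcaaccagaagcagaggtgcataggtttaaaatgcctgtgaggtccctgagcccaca
Gzmf, chr14:56211408-56211607, strand -: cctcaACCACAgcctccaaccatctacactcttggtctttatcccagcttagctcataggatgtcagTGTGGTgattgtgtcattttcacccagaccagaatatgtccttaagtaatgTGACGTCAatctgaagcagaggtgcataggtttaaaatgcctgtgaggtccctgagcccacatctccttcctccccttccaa

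The upstream sequences of Gzmc, Gzmd, Gzme and Gzmf were close copies of each other, and that of Gzmb was not. Over the 250 bases before the start, Gzmd and Gzme were 95.2% identical in the aligned part, and the other pairs within Gzmc, Gzmd, Gzme and Gzmf ranged from 83.3% to 88.7%. Against Gzmb the same genes were 53.1% to 56.7% identical. Each of the 5 windows held 2 matches to the RUNX core, and 7 of the 10 genes held at least 1. Of 32851 RefSeq promoter windows of the same length, 11.2% held at least 1, and the share with 2 was not counted. The matches in the close copies are not independent of each other. The palindrome TGACGTCA, 2 overlapping matches to the cyclic AMP core, was found in Gzmc and Gzmf, against 5.85% of windows with any match to the 6-base core. Gzmb held the 1 AP-1 match among the 10 genes, a motif found in 5.48% of windows. These matches describe letters in a window and are not evidence of binding. Transcript and probe sequences were not used here, so whether the probe sets of Gzmc and Gzmf also bind transcripts of the other copies was not tested, and their values are uncertain to that extent.

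Perforin was above the control at the lower dose and below it at the higher dose. Prf1 (Entrez gene 18646) was at 129 without cholesterol, 188 at 0.5 µg/ml and 93.9 at 0.75 µg/ml. It was above background in the control and at 0.5 µg/ml, and under it at 0.75 µg/ml. At 0.5 µg/ml it was 1.46-fold above the control, a log2 difference of 0.54, and 0.810% of genes past the level filter were at least as far above the control. At 0.75 µg/ml it was at least 1.27-fold below the control, with a measured log2 difference of -0.46. With all dim values raised to the background level, 8.46% of genes past the level filter were at least as far below the control. A difference of that size was therefore common between these arrays. Between the doses Prf1 was at least 1.85-fold lower at 0.75 µg/ml. On the same raised values, 0.990% of genes past the level filter were at least as far lower. The difference between the values as deposited was -0.9998 on the log2 scale. Its 0.75 µg/ml value is under background, so only the bound of 1.85-fold is read from it. No gene of the list had its highest value at 0.5 µg/ml other than Prf1 and Fasl.

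The promoter of Prf1 is shown because, of the 8 measured genes, it differed most between the doses. Capitals mark, in this order, the RUNX match and the match to the cyclic AMP core, on the same 200-base window.
Prf1, chr10:61297636-61297835, strand +: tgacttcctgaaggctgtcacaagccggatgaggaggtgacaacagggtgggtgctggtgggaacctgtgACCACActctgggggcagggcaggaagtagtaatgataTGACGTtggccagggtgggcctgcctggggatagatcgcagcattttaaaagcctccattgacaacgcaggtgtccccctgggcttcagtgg

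Fas ligand had the same order of arrays as perforin, with smaller differences. Fasl (Entrez gene 14103) was at 193 without cholesterol, 210.4 at 0.5 µg/ml and 145 at 0.75 µg/ml, above background on all 3 arrays. It was 1.09-fold above the control at the lower dose and 1.33-fold below it at the higher dose. Of genes past the level filter, 24.4% were at least as far above the control at 0.5 µg/ml. At 0.75 µg/ml, 9.02% were at least as far below it, so differences of these sizes were common. Between the doses Fasl was 1.45-fold lower at 0.75 µg/ml, a log2 difference of -0.53, and 4.67% of genes past the level filter were at least as far lower.

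The granzyme B inhibitor was the bright member with a lower level at the higher dose. Serpinb9 (Entrez gene 20723) was at 556 without cholesterol, 508 at 0.5 µg/ml and 315 at 0.75 µg/ml, above background on every array. The control and the lower dose were close, with a log2 difference of -0.13. At 0.75 µg/ml it was 1.77-fold lower than the control, a log2 difference of -0.82, and 2.39% of genes past the level filter were at least as far lower. It was also 1.61-fold lower at 0.75 than at 0.5 µg/ml. The enzyme Gzmb hardly differed on the array on which its inhibitor was lowest, at 1.07-fold above the control. Of genes past the level filter, 33.6% were at least as far above it.

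At a fold of 1.5 with values under background raised to that level, which 0.4%, 3.98% and 3.17% of genes past the filter reached at 0.5 µg/ml, at 0.75 µg/ml and between the doses, the counts were 0, 1 and 2 of the 8 measured genes. At 0.75 µg/ml against the control it was Serpinb9, and between the doses they were Prf1 and Serpinb9, all lower at 0.75 µg/ml. With the values as deposited, 1.34%, 6.69% and 5.27% of genes reached 1.5-fold, and the 1 further member was Gzmf at 0.75 µg/ml, from values that are all under background. The median log2 difference over the 7 members past the filter was 0.02 at 0.5 µg/ml, -0.41 at 0.75 µg/ml and -0.18 between the doses, against 0.01, 0.00 and -0.01 over all genes past it. Over the 8 measured genes it was 0.07, -0.34 and -0.14, and with dim values raised 0.00, -0.20 and -0.05. The comparisons share arrays and are not independent of each other. Over all genes past the filter, the SD of the log2 difference was 0.20, 0.35 and 0.31 in the same order, and it was 0.27, 0.30 and 0.28 over positive-control probe sets past the same level.

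**Figure D2:**
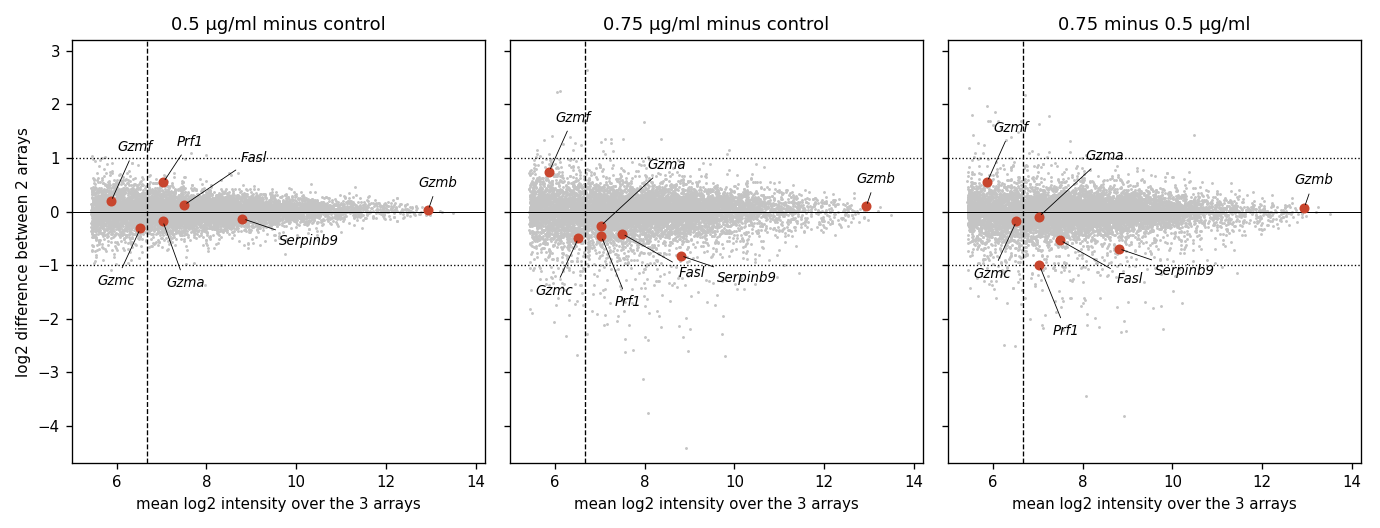
Log2 difference between 2 arrays (y axis) against the mean log2 intensity over the 3 arrays (x axis) for the 10003 genes past the level filter (grey) and the 7 members among them (red). Dotted lines mark 2-fold and the dashed line the background level. No red point passes a dotted line. Prf1 lies at the line, at -0.9998, between the doses, and Serpinb9 lies at -0.82 at 0.75 µg/ml against the control.

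The promoter of Serpinb9 is shown because, of the members above background on every array, Serpinb9 differed most from the control, and capitals mark its match to GAAANNGAAA, the core of the interferon-stimulated response element, on the reverse strand.
Serpinb9, chr13:33004341-33004540, strand +: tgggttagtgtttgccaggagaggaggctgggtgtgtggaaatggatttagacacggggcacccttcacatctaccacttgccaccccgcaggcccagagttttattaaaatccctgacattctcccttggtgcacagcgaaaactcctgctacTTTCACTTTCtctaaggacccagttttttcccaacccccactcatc
That motif was found in 2.27% of promoter windows, and of the 10 genes in Serpinb9 and Gzma. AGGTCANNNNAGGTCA, the spaced repeat read by the oxysterol receptors LXR, was found in none of the 10 and in 0.0152% of all. The lack of a match says only that these letters are not in these windows.

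The other granule and death genes were taken as lists by function, 87 genes of which 81 were measured. Of the 65 past the level filter 2 differed at least 2-fold from the control at 0.75 µg/ml, Serpinb6b and Il12rb2, or 3.08% beside 1.89% of all genes. None did at 0.5 µg/ml. Among 10 relatives of the granzymes, the further granzyme genes and the chymase and mast cell protease genes beside them, all 10 were measured and none was above background on any array. In the order control, lower dose and higher dose, which holds for all sets of 3 values below, Gzmn was at 33.9, 39.7 and 39.6, and the basophil protease gene Mcpt8 at 15.8, 24.7 and 42.3, so both were too dim for a fold or an order of the arrays.

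Genes that process and store granule proteins were bright and close to the control. Of 12 listed and measured, 10 had an array above background, and none differed 2-fold in any comparison. The median log2 difference was -0.07 at 0.5 µg/ml and -0.10 at 0.75 µg/ml, or -0.04 at the higher dose with dim values raised. Srgn, the proteoglycan serglycin that packs granzymes in the granule, was at 5529 without cholesterol, 4931 at 0.5 µg/ml and 4077 at 0.75 µg/ml, lowest at the higher dose and 1.36-fold below the control. Calr, the chaperone calreticulin that also binds perforin in the granule, was at 4346, 4436 and 5470.4, highest at 0.75 µg/ml. Ctsc, the peptidase that activates granzymes by removing their propeptide, named after its values were seen, was at 1163, 1099 and 909, lowest at 0.75 µg/ml as well.

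Genes of granule transport and release had a median log2 difference of -0.05 at 0.5 µg/ml and -0.16 at 0.75 µg/ml, or -0.07 at the higher dose with dim values raised, and none of the 16 measured of 17 listed differed 2-fold. The brightest were Rab7, a GTPase of late endosomes, at 3392, 3533 and 3827, and Ap3b1, an adaptor subunit that sorts cargo to granules, at 1091, 1066 and 937. The syntaxin gene Stx11, whose product is needed for granule fusion, was at 105, 71.4 and 66.5. Stx11, named after its values were seen, was above background in the control alone and at least 1.03-fold lower at either dose. That bound is smaller than the SD over positive-control probe sets, 0.27 and 0.30 on the log2 scale at the 2 doses. Rab27a and Unc13d, the GTPase and the priming factor of granule docking, also named after their values were seen, had log2 differences of -0.24 and 0.18 at 0.75 µg/ml.

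Genes of the death receptor pathway were close to the control, with median log2 differences of 0.03 and 0.07 at the 2 doses, or 0.02 and 0.03 with dim values raised, and none of 15 measured of 17 listed past 2-fold. Casp8, the caspase that Fas activates, was at 2850.1, 3057 and 2996. Lta, a soluble death ligand of the tumour necrosis factor family, was at 1831, 1927 and 2422, highest at 0.75 µg/ml, where it was 1.32-fold above the control. Tnfsf10, the ligand TRAIL, named after its values were seen, was at 211, 262 and 319, ascending with dose. At 1.51-fold above the control it was the 1 gene of the list past 1.5-fold. Of all genes past the filter, 6.69% reached 1.5-fold in either direction, so 1 among 15 is close to that share. Fasl and Tnfsf10, both genes of membrane death ligands, stood on opposite sides of the control at 0.75 µg/ml. Tnf, a further ligand gene of the list, named after its values were seen, was at 856, 962 and 1065, also above the control. Fas, the receptor, also named after its values were seen, was at 268, 212 and 209.

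The serpin genes held the largest difference of the related genes at 0.75 µg/ml. Serpinb6b, a serpin of the same clade as Serpinb9, was at 1574 without cholesterol, 1323 at 0.5 µg/ml and 578 at 0.75 µg/ml. It was lowest at the higher dose, 2.72-fold below the control, with log2 differences of -0.25 and -1.44 at the 2 doses. Of 10 measured of 11 listed inhibitors, 3 had an array above background, and all 3 were below the control at both doses. The others were Serpina3f at 294, 209.5 and 171 and Serpinb6a at 427, 370.2 and 356, both named after their values were seen. Over all genes past the filter the median log2 differences were 0.01 and 0.00, and the share below the control at both doses was not counted. The direction of 3 genes is therefore not a result about the inhibitors. The median over the 10 was -0.06 at 0.5 µg/ml and -0.25 at 0.75 µg/ml, or -0.10 at 0.75 µg/ml with 16 added before log2 and 0.00 with dim values raised, since most of these genes were under background. The Serpinb9 copies Serpinb9b, Serpinb9c, Serpinb9d, Serpinb9e, Serpinb9f and Serpinb9g, named here after their values were seen, were all under background on every array.

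Regulators of cytotoxic genes differed both ways at 0.75 µg/ml, with a median of 0.02 over 18 measured of 20 listed. The interleukin-12 receptor gene Il12rb2, whose product carries the signal that induces Tc1 cells, was at 2766 without cholesterol, 2846 at 0.5 µg/ml and 1382 at 0.75 µg/ml, 2.001-fold below the control at the higher dose and level with it at the lower. It was the 1 regulator past 2-fold, and with 16 added before log2 it was at 1.99-fold and no longer past it. Bhlhe40, a transcription factor of effector T cells, was at 2157, 2157 and 1152, lower at 0.75 µg/ml by 1.87-fold. Eomes, a T-box factor that drives perforin and granzyme genes, was at 559, 630 and 806, highest at the higher dose, and the related Tbx21 was at 240.3, 217 and 227. Runx3, which binds cytotoxic gene promoters in CD8 T cells, was at 1981, 2013 and 1578. Bhlhe40, Eomes, Tbx21 and Runx3 were named after their values were seen.

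**Figure D3:**
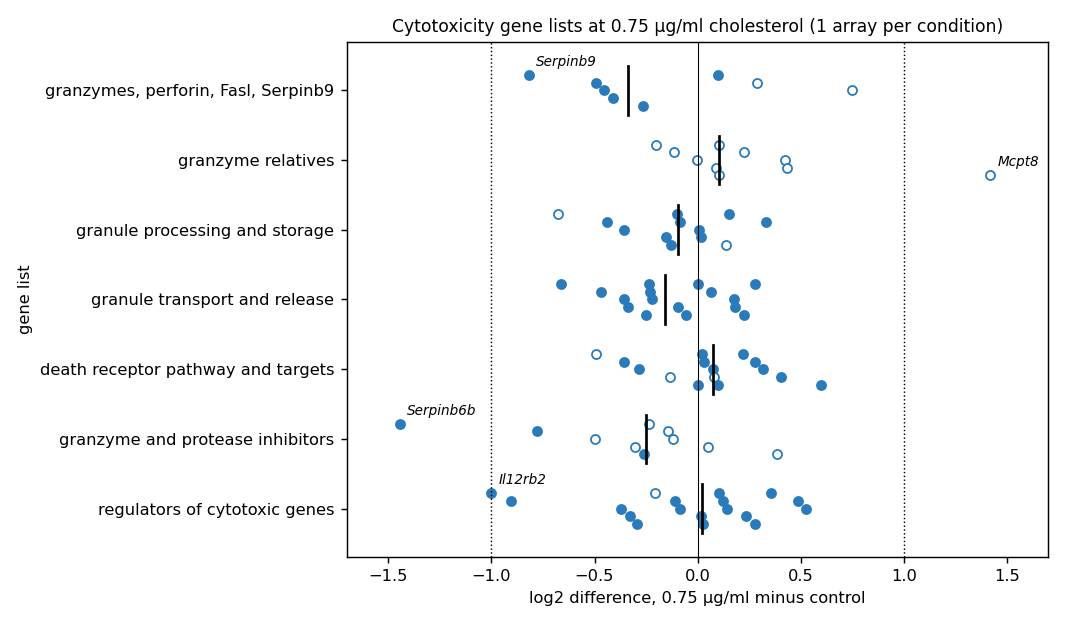
Log2 difference at 0.75 µg/ml against the control for each measured gene, by list. Filled points had at least 1 of the 3 arrays above background, open points none, black bars are list medians, and dotted lines mark 2-fold. Serpinb6b at -1.44 and Il12rb2 at -1.0008 are the filled points at or past 2-fold, and Mcpt8 is an open point because it was under background on every array.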

How the data were processed

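RNA was isolated with Trizol and biotin-labelled, per the labels, by a whole-transcript sense method. The table the authors deposited holds 1 intensity per probe set and array, linear by its values. Software, background correction and normalization were not given in the sources used here. Probe sets were named from the platform annotation. Of 22206 transcript probe sets, 19572 had 1 gene symbol, 0 had several and the other 2634 have no name here. RefSeq (GRCm38.p6) held all 19572 identifiers. The brightest probe set was kept for the 55 genes with several.

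Differences are of log2 intensities with no further normalization, and a log2 of the deposited value was taken without an added constant. A gene was counted from a fold of 2. Where 1 of 2 arrays was under the background level, the bound "at least" uses that level in its place. Members and lists were chosen with earlier results of these data known. Listed genes were named if at least 2-fold different with an array above background, otherwise the 2 brightest per list, and exceptions are marked. No member was 2-fold different, so no genes of like pattern were named. The counting was tested on simulated data, with known fold changes put into copies of the control array. That checks the arithmetic only and not the error of single arrays. Python 3.11.15, numpy 2.4.6, pandas 2.3.3 and matplotlib 3.10.9 were used.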

Additional observations from a re-analysis of the deposited data

How the results depend on the processing

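The alternatives were quantile normalization, median centring, dim values raised to 102, 16 added before log2, the mean over probe sets, a fold of 1.5 and no level filter, with a filter over all probe sets, and dim values raised together with the fold of 1.5, added after the data were seen. With 1 array per condition no array can be left out, and no paired analysis was possible because the labels give no replicate numbers. Median centring counted 1 member at least 2-fold different between the doses, Prf1 at -1.003, and under the other scalings it was 0. Raising dim values moved the members' median at 0.75 µg/ml from -0.34 to -0.20, and Gzmf to 0.00. The fold of 1.5 gave 2 members at 0.75 µg/ml and 2 between the doses, and 1, 8 and 4 related genes at 0.5 µg/ml, 0.75 µg/ml and between the doses, where 2-fold gave 0, 3 and 2. Adding 16 left 1 related gene at 0.75 µg/ml, Serpinb6b, with Il12rb2 at 1.99-fold and the dim Mcpt8 no longer counted. Of 120 alternative values of single members, 117 moved by less than the SD of the positive controls, 3 by more, 7 became 0 and 0 changed sign. Of 90 alternative list medians, 7 moved by more than that SD over the root of the list size, 8 became 0 and 2 changed sign. Part of the 117 was fixed in advance and does not measure robustness. Each measured member had 1 probe set, so the mean over probe sets could not move it. Raising dim values could not move members above background on every array.

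Over all genes past the filter, 6 were higher and 2 lower at 0.5 µg/ml, 30 and 159 at 0.75 µg/ml, and 33 and 120 between the doses. Raising dim values gave 2 and 1, 15 and 98, and 12 and 75. Adding 16 gave 2 and 1 at 0.5 µg/ml, and the mean over probe sets 1 lower there. The fold of 1.5 gave 60 and 74, 216 and 453, and 159 and 368. Without a filter 25 were higher and 29 lower at 0.5 µg/ml, 82 higher at 0.75 µg/ml and 76 higher between the doses. The filter over all probe sets gave 10 and 6 at 0.5 µg/ml. The cause was not tested beyond what each setting itself changes. Signal over background limits Gzmc, Gzmf, Gzmk and, at 0.75 µg/ml, Prf1.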

Other observations

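Some values in the table were exactly equal on 2 arrays. This held for 3.23% of transcript probe sets between the control and 0.5 µg/ml, 3.11% between the control and 0.75 µg/ml and 3.93% between the doses, and for at most 0.46% of negative-control probe sets in each pair. None of the measured granzyme, perforin, Fasl or Serpinb9 values was among them. Among the related genes, Notch1 was at 245.1 and Notch2 at 345 at both doses, against 265 and 424 in the control, and Ap3d1 was at 720.4 in the control and at 0.75 µg/ml. These genes were chosen after their values were seen.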
